A study of Arabidopsis thaliana with 8 samples.

Results

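The genes described here were far higher after heat than in control seedlings and stood close to control after anoxia. They are 116 of the 13264 nuclear genes named here, measured by 117 of the 22810 probe sets on the array, since AT1G16040 has 2 probe sets. They were selected on the measured values: a probe set was taken when it matched 1 nuclear gene, when its mean log2 intensity was at least 3 above control in heat, when its mean in anoxia lay between -0.75 and 0.75 of control, and when both heat arrays lay above both control arrays. These limits used the heat, anoxia and control arrays, so the differences of heat and of anoxia from control are given as a description, with no test. The limits on values alone were met by 198 probe sets, of which 7 matched several genes and 74 had no gene name or an organelle gene. The name tables give 1 nuclear gene for 13415 probe sets.

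Transcripts were measured on Affymetrix ATH1 arrays in whole *Arabidopsis thaliana* seedlings of ecotype Columbia 0 that had germinated in the dark and were 4 days old. Seedlings of the first group were held at 38 °C for 90 minutes and then at 23 °C under anoxia, that is without oxygen, for a further 6 hours, those of the second had the same heat alone, those of the third had the 6 hours of anoxia alone at 23 °C, and controls stayed at 23 °C. All stood in the dark in liquid half-strength Murashige-Skoog medium with 30 mM sucrose. Each group had 2 biological replicates, with 1 array each. No group was heated and then kept at 23 °C with oxygen, so the effects of the time since heat and of anoxia after heat cannot be told apart. RNA came from whole seedlings, in which fewer cells of a type and less RNA per cell cannot be told apart.

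In heat, plant cells activate heat shock transcription factors, which switch on genes of chaperones: small heat shock proteins that hold unfolding proteins, and the HSP70, HSP90 and HSP100 machines that refold or pull apart damaged ones. Proteins that cannot be refolded are tagged with ubiquitin and degraded. In Arabidopsis seedlings anoxia is known to raise many heat shock protein transcripts too, beside the genes of fermentation, and a heat treatment before anoxia is known to improve survival. The genes below are those named nuclear genes that passed the limit set here for heat and lay near control in anoxia itself.

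The median intensity per array was 36.8 to 53.4, 58.1% to 60.6% of probe sets reached a log2 intensity of 4, taken here as the limit of dim signal, and replicates correlated at 0.965 to 0.979. The control probe set for 25S ribosomal RNA stood apart in heat then anoxia replicate 2 (log2 11.46) and anoxia replicate 2 (12.19), against 2.79 to 6.58 on the other 6 arrays, so results that rest on these 2 arrays are also given without them. PORB is a chlorophyll synthesis gene active in dark-grown seedlings. It was at log2 12.01 in heat then anoxia, 13.36 in heat, 13.52 in anoxia and 13.91 in control. The root hair expansins EXPA7 and EXPA18 were at 2.04 and 2.29 in heat then anoxia, 2.15 and 3.06 in heat and 1.93 and 2.25 in anoxia, against 5.15 and 5.98 in control, and the part of root hairs in the results was not tested. PORA, the other gene listed for dark-grown seedlings, and the markers of seed storage and of green leaf were not matched to named probe sets.

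Across the 117 probe sets, heat minus control had a median of 3.94 on the log2 scale and ranged between 3.02 and 9.05. Anoxia minus control had a median of 0.21 (-0.74 to 0.74), with the anoxia mean above control in 82, below it in 34 and equal to it in the remaining 1. Over all 14535 probe sets that reached log2 4 on 2 or more of the 8 arrays, the medians were -0.22 for heat minus control and -0.01 for anoxia minus control. All 117 passed this filter. Their heat arrays alone were enough for it, and 2 had fewer than 2 arrays at log2 4 or above outside heat. In control, 48 of the 117 (41.0%) had a mean below log2 4, against 5.97% of all probe sets past the filter, and 45 were below it in anoxia as well. The differences of these 48 from control depend on how GCRMA, the method that made the intensities, sets dim signals.

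**Figure D1:**
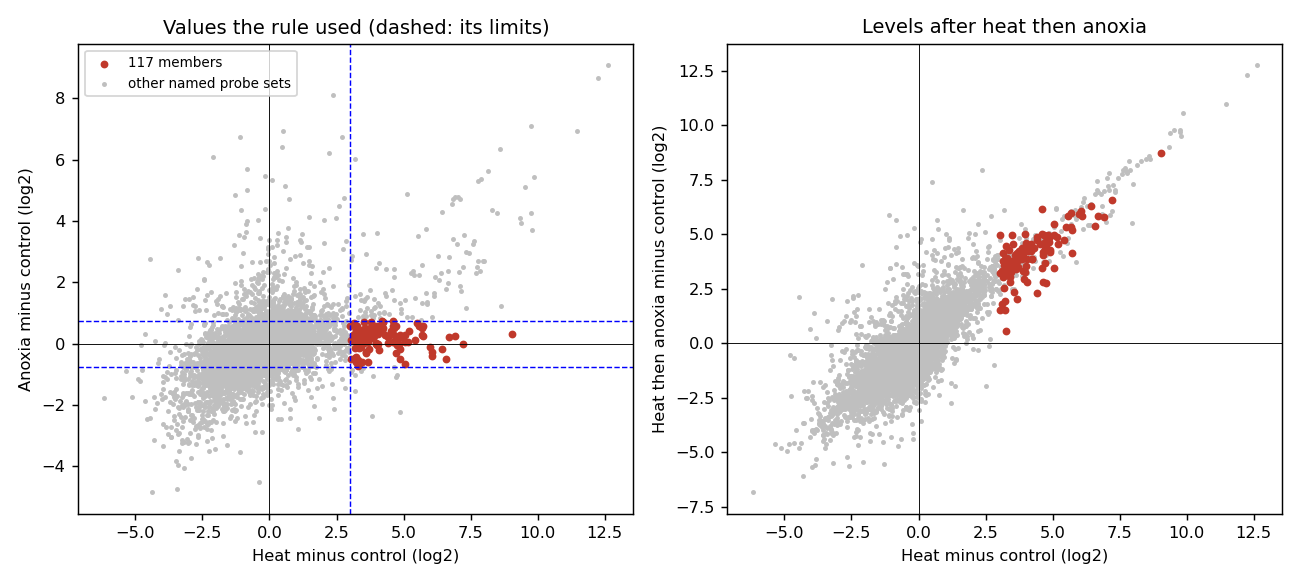
Each point is a named probe set of a nuclear gene past the filter. Left, anoxia minus control against heat minus control (log2), with the limits of the choice as dashed lines. Right, heat then anoxia minus control against heat minus control (log2). The 117 probe sets lie right of 3 and within -0.75 to 0.75 on the left, and above 0 on the right.

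Just inside the lower limit of heat stood AT1G56300 and AT1G16500 (both 3.02), and just outside it AT5G19480 (2.99) and AT5G22390 (2.97). At the upper limit of anoxia, AT5G37710 (0.74) was inside, while AT2G20720 (0.77) and Hop2, which links HSP70 to HSP90 (0.82), were outside. At the lower limit, AT1G61640 (-0.74) was inside, while AT1G62010 (-0.76) and the histone chaperone gene ASF1B (-0.79) were outside. Named genes thus stood close to each limit on both of its sides.

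After heat then anoxia, all but 1 of the probe sets were called above control. Most lay within 2-fold of their heat level, as did most of all probe sets past the filter. The heat then anoxia arrays had no part in the choice, but the heat, anoxia and control arrays they are set against did. Heat then anoxia minus control had a median of 4.01 (0.57 to 8.72) over the 117, against -0.33 over all probe sets, and 116 of 117 were called higher and 0 lower. A call here is a 2-fold or larger difference with a limma p, Benjamini-Hochberg adjusted, under 0.05, and 15.2% of all probe sets were called higher and 25.4% lower in this comparison. Heat then anoxia minus anoxia had a median of 3.81, against -0.31 over all probe sets, and again 116 were called higher (background 12.8%) and 0 lower (background 17.2%). The exception in both was AT3G10100, at 0.57 above control (limma adjusted p = 0.340) and 0.54 above anoxia (limma adjusted p = 0.387). Both heat then anoxia arrays lay above both control arrays in 117 of 117 probe sets (29% of all probe sets) and above both anoxia arrays in 117 of 117 (25.5% of all). That the heat arrays lay above the control arrays was part of the choice. Without the 2 arrays of high 25S signal, 116 were called higher against control and 114 against anoxia.

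Heat then anoxia minus heat had a median of -0.07 (quartiles -0.50 and 0.28) over the 117, against -0.05 (-0.46 and 0.36) over all probe sets. The mean was above heat in 54 and below it in 63, and 94 lay within 1 of their heat mean on the log2 scale. Both heat then anoxia arrays were above both heat arrays in 32 of the 117 (27.8% of all probe sets) and below them in 41 (33.7% of all), while the arrays overlapped in 44. In limma 3 were called higher (background 5.13%), 10 lower (background 4.66%) and 104 neither. For 51 of the 117, the 95% interval of the difference lay within -1 and 1, a range of 2-fold either way. For 53 that were not called the interval reached past it, so that a 2-fold change was not excluded. Shares over all probe sets were not computed for these intervals or for the 94, so nothing particular to these genes is read from them. The heat arrays are part of both the choice and this comparison. Of the 10 called lower, AT3G10100 had no array and AT4G19430 1 array at log2 4 or above outside heat, so these 2 passed the filter through the heat arrays that the choice used, and their calls support nothing.

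**Figure D2:**
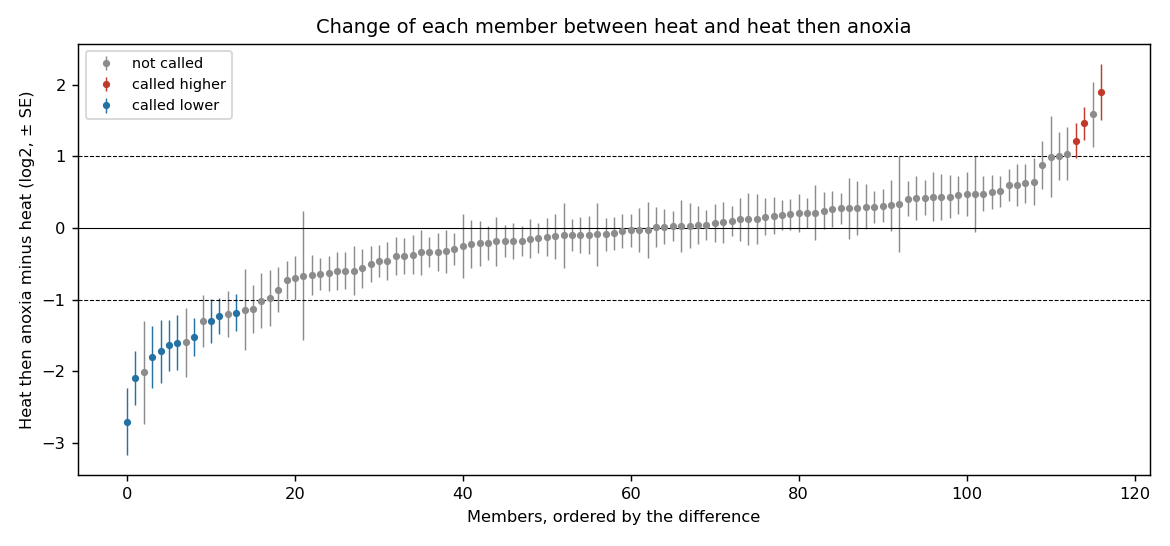
Heat then anoxia minus heat (log2) for each of the 117 probe sets in the order of the difference, with bars for the SE from limma. Red points were called higher (3), blue points lower (10) and grey points neither (104), and dashed lines mark 2-fold. Most points lie between the dashed lines, and the lowest is at -2.71 and the highest at 1.90.

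The set's 11 chaperones and co-chaperones were all called higher in heat then anoxia than in control (background 15.2%) and than in anoxia (background 12.8%). The same held for 116 of the 117 probe sets in each comparison, so it says nothing particular about chaperones. Of the 11, 1 was called lower than in heat (background 4.66%). Their median of heat then anoxia minus heat was 0.15. Hsp70-2, a cytosolic HSP70 that folds new and damaged proteins, had log2 intensities of 12.44 and 12.33 in heat then anoxia, 12.23 and 12.23 in heat, 8.20 and 7.71 in anoxia and 7.95 and 8.35 in control. Its heated arrays were well above the others, and its anoxia and control arrays overlapped. AT3G09440, another cytosolic HSP70, had 14.76 and 15.01 in heat then anoxia, 14.79 and 14.90 in heat, 11.02 and 11.32 in anoxia and 10.71 and 11.28 in control. Cytosolic HSP70 genes are near-identical in places, and signal of one on the probes of another cannot be told apart here.

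AT4G16660, a large HSP70-family protein of the endoplasmic reticulum, had 11.26 and 11.73 in heat then anoxia, 10.99 and 10.75 in heat, 7.14 and 6.88 in anoxia and 7.36 and 7.76 in control. Both anoxia arrays lay below both control arrays, and both heat then anoxia arrays above both heat arrays, with a difference of 0.62 that was not called (limma adjusted p = 0.187). SQN, the cyclophilin 40 that assists HSP90 and is known in Arabidopsis for its part in microRNA action, had 7.06 and 7.21 in heat then anoxia, 7.03 and 7.09 in heat, 2.93 and 3.15 in anoxia and 2.38 and 3.14 in control. Its anoxia and control arrays were all below log2 4. AT1G01940, a cyclophilin-type prolyl isomerase, showed the highest heat minus control of the 11 (5.56), with 13.51 and 13.71 in heat then anoxia, 13.34 and 13.28 in heat, 8.47 and 8.17 in anoxia and 7.77 and 7.73 in control.

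BOB1, a NudC-domain chaperone needed for development and heat tolerance in Arabidopsis, had 13.06 and 12.99 in heat then anoxia, 12.87 and 12.97 in heat, 9.74 and 9.59 in anoxia and 9.10 and 9.16 in control. Its paralog AT4G27890 had 5.94 and 5.88 in heat then anoxia, 6.23 and 6.73 in heat, 2.56 and 3.07 in anoxia and 2.56 and 2.58 in control. For BOB1 both heat then anoxia arrays were above both heat arrays and for AT4G27890 both were below, and neither difference was called. J-domain proteins hand clients to HSP70, and 4 were among the genes. Of these, AT4G28480 and AT1G56300 stood at 0.21 and 0.19 from heat. AT5G03030, of mitochondrial protein import, had 13.26 and 13.37 in heat then anoxia, 12.82 and 12.06 in heat, 9.68 and 9.02 in anoxia and 9.20 and 8.91 in control. Both its heat then anoxia arrays were above both heat arrays, by 0.87 in the mean (95% interval 0.10 to 1.65), which was not called (limma adjusted p = 0.142). The J-domain protein AT2G33735 fell to 8.50 and 8.30 in heat then anoxia, against 9.82 and 9.45 in heat (-1.23 ± 0.25 SE, limma adjusted p = 0.0234), and had 5.97 and 5.85 in anoxia and 5.79 and 5.40 in control. The call was lost in 4 of the 8 fits that left out 1 array.

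**Figure D3:**
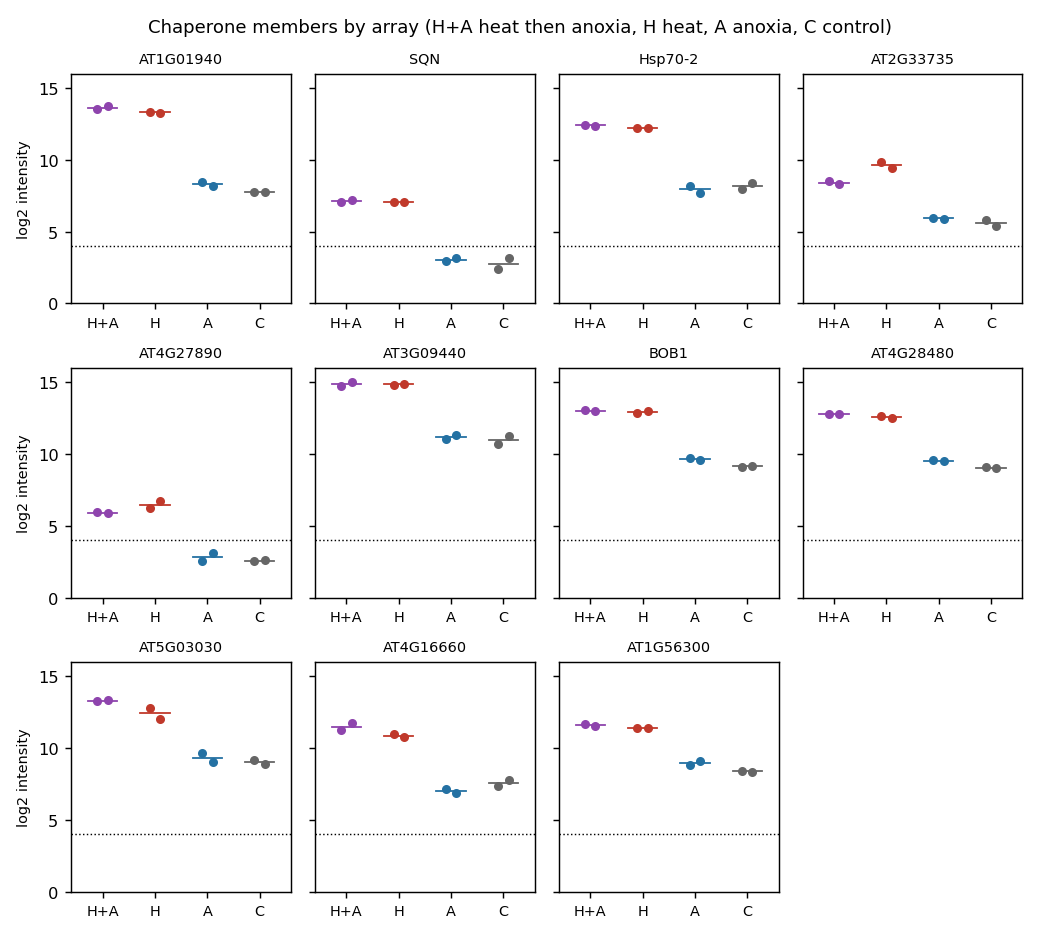
Log2 intensity of the 11 chaperone and co-chaperone genes on each array, with heat then anoxia (H+A), heat (H), anoxia (A) and control (C) and a short line at each group's mean. The dotted line is log2 4. In all 11, as in all 117 probe sets, the H+A and H points lie above the A and C points. AT2G33735 has its H+A points below its H points.

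The chaperone genes outside the set give the range of the response. Of 10 measured small heat shock proteins (18 loci listed) none was in the set: 8 rose in heat (10.5% of all probe sets rose and 17.9% fell) and 7 rose in anoxia (3.95% of all rose and 5.92% fell), with medians of 8.01 and 5.50. Of 11 measured larger cytosolic chaperones and co-chaperones (24 listed) 10 rose in heat and 6 in anoxia, with medians of 7.24 and 2.96. Among these, Hsp70-2, AT3G09440 and BOB1, were in the set, and Hop3, the J-domain protein AT1G71000 and HSA32, needed for lasting heat tolerance, rose in anoxia by 5.11, 6.95 and 3.55. Neither list had a gene called in heat then anoxia against heat, where 5.13% of all probe sets were called higher and 4.66% lower. With lists this short, nothing is read from the lack of calls. Only 1 chaperone of mitochondria and plastids was measured (17 listed), Cpn60beta2, with 2.61 in heat and -0.49 in anoxia. Of 6 measured endoplasmic reticulum genes (23 listed) 2 rose in heat and 1 in anoxia, none was in the set, and 1, BZIP60, rose in heat then anoxia against heat (1.88, limma adjusted p = 0.0133). No measured gene of the heat shock factor or galactinol and ascorbate peroxidase lists had a name here. Of 3 measured abscisic acid and drought genes (18 listed) 1 rose in heat and none in anoxia. Of 22 measured core hypoxia genes (42 listed) none was in the set, 14 rose in anoxia, and 5 rose and 5 fell in heat. In heat then anoxia against heat, 8 of them rose and 1 fell (5.13% and 4.66% of all probe sets).

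The 11 genes of protein turnover were all called higher in heat then anoxia than in control (background 15.2%) and than in anoxia (background 12.8%). So were 116 of the 117 probe sets in each comparison. None of the 11 was called against heat (background 5.13% higher and 4.66% lower). DER1, a derlin that helps pull misfolded proteins out of the endoplasmic reticulum for degradation, had 12.49 and 12.72 in heat then anoxia, 12.58 and 12.82 in heat, 8.01 and 8.15 in anoxia and 8.19 and 7.75 in control. The heated arrays overlapped each other, and so did the others. SK18, a SKP1-like subunit of SCF ubiquitin ligases, had 11.57 and 11.21 in heat then anoxia, 11.71 and 11.44 in heat, 6.97 and 7.00 in anoxia and 6.97 and 6.56 in control. CSN5B, the COP9 signalosome subunit that removes the ubiquitin-like NEDD8 (RUB) from cullins of such ligases, had 7.62 and 7.48 in heat then anoxia, 8.20 and 8.10 in heat, 4.87 and 4.90 in anoxia and 5.05 and 4.43 in control. Its difference from heat was -0.60 (limma adjusted p = 0.185). The other 8 genes of this group had heat minus control between 3.51 and 4.74 and heat then anoxia minus heat between -0.46 and 0.51. They were a RING-type ligase (AT5G58787), the F-box proteins AT1G49790 and AT2G41170, an OTU-type deubiquitinase (AT3G57810), a ubiquitin-associated domain membrane protein (AT2G41160), an A20/AN1 zinc finger protein (AT2G27580) and the AAA ATPases AT4G27680 and AT3G50940.

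Genes of RNA processing and of organelle RNA counted 10. All were called higher in heat then anoxia than in control (background 15.2%), as were 116 of the 117 probe sets. Of the 10, 2 were called lower than in heat (background 4.66%). AT5G64950, of the mTERF family, which acts on gene expression in mitochondria and plastids, had 11.12 and 10.94 in heat then anoxia, 12.00 and 12.43 in heat, 4.91 and 5.36 in anoxia and 5.67 and 5.61 in control. It was below both heat arrays (-1.18 ± 0.26 SE, limma adjusted p = 0.0308) while still 5.39 above control, and the call against heat was lost in 6 of the 8 fits that left out 1 array. Of 4 pentatricopeptide repeat proteins, which bind organelle RNA, AT1G22960 fell against heat (-1.29, limma adjusted p = 0.0377, lost in 6 of those 8 fits), and AT5G06400, AT1G68930 and AT2G01740 stood at -1.02, -0.60 and 0.48 without a call. The nuclear RNA genes stood between 0.18 and 0.65: a Brr2-type helicase of the spliceosome (AT2G42270, 0.41), a DEAD-box helicase (AT5G65900, 0.30), an RRM protein (AT4G14300, 0.18), a pseudouridine synthase (AT2G30320, 0.42) and an exonuclease domain protein (AT5G24340, 0.65).

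The 7 transcription factors and chromatin readers had a median of heat then anoxia minus heat of -0.59. AT4G18450, an AP2/ERF factor, had 8.85 and 7.91 in heat then anoxia, 9.50 and 9.53 in heat, 2.66 and 3.04 in anoxia and 2.46 and 2.72 in control. It was among the 10 highest of the set in heat (at least 5.51 above control, with signals below log2 4 counted as 4), with dim signals without heat, and its difference of -1.13 from heat was not called (limma adjusted p = 0.0711). AT5G18450, a DREB2-type AP2/ERF factor, had 5.06 and 5.48 in heat then anoxia, 6.02 and 7.11 in heat, 3.51 and 3.62 in anoxia and 3.36 and 3.55 in control (-1.30, limma adjusted p = 0.0605). AT2G42150, a bromodomain protein of the kind that reads acetylated histones, was the only one called: it rose to 7.31 and 6.93 in heat then anoxia, against 5.77 and 5.55 in heat (1.46 ± 0.23 SE, limma adjusted p = 0.0104), and had 2.17 and 2.23 in anoxia and 2.14 and 2.20 in control. Its call was lost without 1 array in 2 of 8 fits. The trihelix factor AT1G76880 (0.47), the bZIP factor AT5G04840 (-0.59), the B3 protein AT1G16640 (-0.70) and the GARP-type factor AT1G49560 (-0.15) were not called.

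Lipid and membrane genes made up 10 probe sets of 9 genes. All were called higher in heat then anoxia than in control (background 15.2%), as were 116 of the 117 probe sets. None of the 10 was called against heat (background 5.13% higher and 4.66% lower). AT4G13550, a plastid lipase known as heat-inducible in Arabidopsis, had 9.35 and 9.92 in heat then anoxia, 9.35 and 8.99 in heat, 5.90 and 5.87 in anoxia and 5.37 and 5.47 in control. FaTA, the thioesterase that frees fatty acids from acyl carrier protein in plastids, had 8.85 and 9.18 in heat then anoxia, 9.09 and 9.11 in heat, 5.73 and 5.64 in anoxia and 5.36 and 5.60 in control. The choline kinase AT1G74320, of phosphatidylcholine synthesis, had 10.97 and 10.84 in heat then anoxia, 11.12 and 11.06 in heat, 7.98 and 8.31 in anoxia and 7.72 and 7.84 in control. In these 3, as in all 117 probe sets, all heated arrays lay above all anoxia and control arrays, which the choice fixed in part. GPI anchors tie proteins to the cell surface, and genes for their synthesis (AT1G16040, PIG-F type) and remodelling (AT5G62130, Per1 type) were both in the set. The 2 probe sets of AT1G16040 stood at 0.04 and -0.98 from heat, and neither was called. The first had 10.54 and 10.71 in heat then anoxia and 10.50 and 10.66 in heat. The second, below log2 4 in anoxia and control, had 5.05 and 6.31 in heat then anoxia and 6.52 and 6.79 in heat. A difference between the 2 was not tested. AT5G04980, of the inositol polyphosphate 5-phosphatase family, was at least 5.76 above control in heat with dim signals counted as log2 4, with 9.05 and 8.75 in heat then anoxia, 9.70 and 9.82 in heat, 2.87 and 3.72 in anoxia and 2.96 and 3.17 in control.

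Of 4 transport genes AT5G62730, an NRT1/PTR family transporter, differed most from control in heat (at least 5.12 with dim signals counted as log2 4), with 8.43 and 8.54 in heat then anoxia, 9.36 and 8.88 in heat, 1.85 and 1.89 in anoxia and 1.85 and 1.93 in control. It was below both heat arrays (-0.63, limma adjusted p = 0.136, not called), and its anoxia and control arrays were far below log2 4. The sugar transporter gene SWEET1 had 9.79 and 9.48 in heat then anoxia, 9.94 and 9.78 in heat, 6.33 and 5.56 in anoxia and 6.57 and 5.91 in control. PM-ANT, a plasma membrane carrier of adenine nucleotides, had 7.87 and 8.10 in heat then anoxia, 8.48 and 7.42 in heat, 4.13 and 3.77 in anoxia and 4.78 and 4.52 in control, so that both anoxia arrays lay below both controls. The importin AT3G08960 stood at 0.31 from heat.

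Genes of redox reactions and metabolism counted 5. CYTC-2, a cytochrome c that carries electrons in mitochondrial respiration, had 12.58 and 12.40 in heat then anoxia, 12.65 and 12.48 in heat, 9.81 and 9.77 in anoxia and 9.17 and 9.49 in control. UGT71C2, which attaches glucose to small molecules, rose to 8.39 and 8.31 in heat then anoxia, against 7.28 and 6.98 in heat (1.22 ± 0.25 SE, limma adjusted p = 0.0233), and had 4.34 and 4.55 in anoxia and 3.67 and 4.09 in control. Its call was lost in 4 of the 8 fits that left out 1 array. The glutaredoxin AT4G15680 had 6.84 and 5.37 in heat then anoxia, 8.42 and 7.81 in heat, 4.25 and 2.38 in anoxia and 3.94 and 2.77 in control. Its difference from heat was not called (-2.01 ± 0.72 SE, limma adjusted p = 0.119), and replicate 2 was below replicate 1 in all 4 groups. The deaminase AT3G48540 and the RBOH-type NADPH oxidase AT1G19230, a producer of superoxide at the cell surface, stood at -0.04 and -0.38.

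The late embryogenesis abundant protein AT3G53040, of a family that protects proteins in drying cells, had 7.86 and 7.28 in heat then anoxia, 8.31 and 9.10 in heat, 3.84 and 5.56 in anoxia and 4.43 and 3.80 in control. AT2G32190, of the cysteine-rich transmembrane module family, had 9.40 and 9.68 in heat then anoxia, 8.54 and 7.37 in heat, 4.00 and 4.19 in anoxia and 3.89 and 2.83 in control. The first lay below both heat arrays and the second above both, and neither was called (-1.14, limma adjusted p = 0.240, and 1.58, limma adjusted p = 0.0663). Of 2 immune receptor genes, AT5G47250 (CC-NBS-LRR) stood at 0.43, and AT1G17600 (TIR-NBS-LRR) fell to 5.68 and 4.19 in heat then anoxia, against 6.72 and 6.74 in heat (-1.80 ± 0.43 SE, limma adjusted p = 0.0382), with 2.10 and 2.20 in anoxia and 2.07 and 2.14 in control. The call for AT1G17600 was lost in 7 of the 8 fits without 1 array, and the difference was -1.06 without heat then anoxia replicate 2.

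No role is given here for 52 of the 117. They include AT4G33660, with 13.64 and 13.45 in heat then anoxia, 13.81 and 13.78 in heat, 7.96 and 6.67 in anoxia and 8.13 and 7.31 in control. AT3G62780 had 8.98 and 9.01 in heat then anoxia, 8.93 and 9.01 in heat, 2.63 and 2.66 in anoxia and 2.81 and 3.05 in control. Their heat then anoxia means stood at -0.25 and 0.03 from heat, neither called, and far over control. AT1G67850 rose to 9.57 and 9.81 in heat then anoxia, against 8.43 and 7.15 in heat (1.90 ± 0.40 SE, limma adjusted p = 0.0251), with 4.08 and 4.36 in anoxia and 4.80 and 4.67 in control. AT1G16500 fell to 6.49 and 5.94 in heat then anoxia, against 7.73 and 7.73 in heat (-1.52 ± 0.27 SE, limma adjusted p = 0.0147), with 4.72 and 4.96 in anoxia and 4.88 and 4.53 in control. AT3G12510 had 9.69 and 9.81 in heat then anoxia, 9.22 and 8.22 in heat, 5.0 and 4.45 in anoxia and 4.95 and 4.52 in control. AT4G35985 had 8.95 and 9.85 in heat then anoxia, 8.47 and 8.32 in heat, 5.33 and 5.80 in anoxia and 4.93 and 4.80 in control. AT1G21010 had 9.76 and 10.10 in heat then anoxia, 9.03 and 8.84 in heat, 4.34 and 6.18 in anoxia and 5.33 and 6.21 in control. In these 3 both heat then anoxia arrays were above both heat arrays, by 1.03, 1.00 and 0.99 in the mean, and none was called (limma adjusted p = 0.120, 0.0968 and 0.304). Without 1 array in turn, AT1G67850 and AT1G16500 each lost the call in 3 of 8 fits. AT3G17130 (-1.72) and AT4G24410 (-1.60) were also called lower than in heat (limma adjusted p = 0.0470 and 0.0399), and lost the call in 5 and 7 of the 8 fits. AT4G19430 stood at -1.64 from heat. It passed the filter through the heat arrays that the choice used, so this difference is given without a test. AT1G48720 differed most between replicates, with 6.34 and 8.69 in heat then anoxia, 6.93 and 9.42 in heat, 2.87 and 2.91 in anoxia and 2.61 and 2.93 in control. Replicate 2 was the higher one in both heated groups, and its probe set is marked as matching several transcripts.

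Of the 10 genes called lower than in heat, 7 were among the 48 with control below log2 4, and 3 were among the other 69. The median of heat then anoxia minus heat was -0.40 in the 48 and 0.04 in the 69. These 7 include AT3G10100 and AT4G19430, which passed the filter through the heat arrays, so their calls support nothing in any of the fits. The share called among all dim probe sets was not computed. The calls in either direction rest on few arrays. Without heat replicate 2 there were 0 higher and 0 lower, without heat replicate 1 there were 2 and 2, without heat then anoxia replicate 1 there were 0 and 6, and without heat then anoxia replicate 2 there were 1 and 4. Without both arrays of high 25S signal 1 was called higher (AT2G42150) and 2 lower (AT2G07693 and AT4G19430). The change with anoxia after heat was also set against the change with anoxia alone (the interaction, with a median of -0.28 over the 117): 2 were called higher (background 3.73%) and 3 lower (background 2.45%), shares near the background, which say nothing particular about these genes.

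RefSeq lists 6 of the 115 probe sets found in its table as pseudogenes (5.22%), against 75 of 7714 named probe sets past the filter (0.972%) and 923 of 13367 named probe sets in all (6.91%). The 117 had to reach the filter in heat. AT1G10260, one of the pseudogenes, had the highest heat minus control of the set, at least 7.92 on the log2 scale with dim signals counted as log2 4, with 11.37 and 11.82 in heat then anoxia, 11.70 and 12.14 in heat, 2.89 and 3.46 in anoxia and 2.79 and 2.94 in control. AT1G27285 had 8.71 and 8.24 in heat then anoxia, 8.70 and 8.50 in heat, 2.23 and 1.77 in anoxia and 2.23 and 2.10 in control. AT5G28430 (0.27 from heat) and AT2G38520 (0.31) likewise stayed near their heat level. In these 4 the anoxia and control arrays were all below log2 4. AT3G10100 was the only one of the 117 not called above control after heat then anoxia. It had 2.32 and 3.15 in heat then anoxia, 4.73 and 6.16 in heat, 2.17 and 2.23 in anoxia and 2.14 and 2.20 in control. Only its heat arrays reached log2 4, and they were used in the choice, so its difference from heat is given without a test. The probe sets of AT1G10260, AT5G28430 and AT3G10100 are marked as matching several transcripts, so signal from related genes cannot be told apart from their own.

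AT2G07693, the sixth pseudogene, AT2G07718 and AT2G07728 lie in the stretch of chromosome 2 that is a copy of mitochondrial DNA, so transcripts of the mitochondrion itself could reach their probes. AT2G07693 fell to 4.15 and 5.31 in heat then anoxia, against 7.04 and 6.60 in heat (-2.09 ± 0.38 SE, limma adjusted p = 0.0158), with 2.58 and 2.66 in anoxia and 2.29 and 2.54 in control. Its call was lost in 2 of the 8 fits without 1 array. AT2G07728 had 6.60 and 7.11 in heat then anoxia, 8.65 and 8.25 in heat, 3.54 and 3.09 in anoxia and 3.50 and 1.96 in control (-1.60, limma adjusted p = 0.0766). AT2G07718 had 8.12 and 8.60 in heat then anoxia, 8.86 and 8.64 in heat, 5.14 and 5.27 in anoxia and 4.57 and 4.44 in control. All 3 lay below their heat arrays and above control. Over 22 named probe sets of mitochondrial genes, the median of heat minus control was 5.70, that of anoxia minus control 2.36 and that of heat then anoxia minus heat -0.45, and the part of mitochondrial transcripts in the signal of the 3 loci was not tested.

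**Figure D4:**
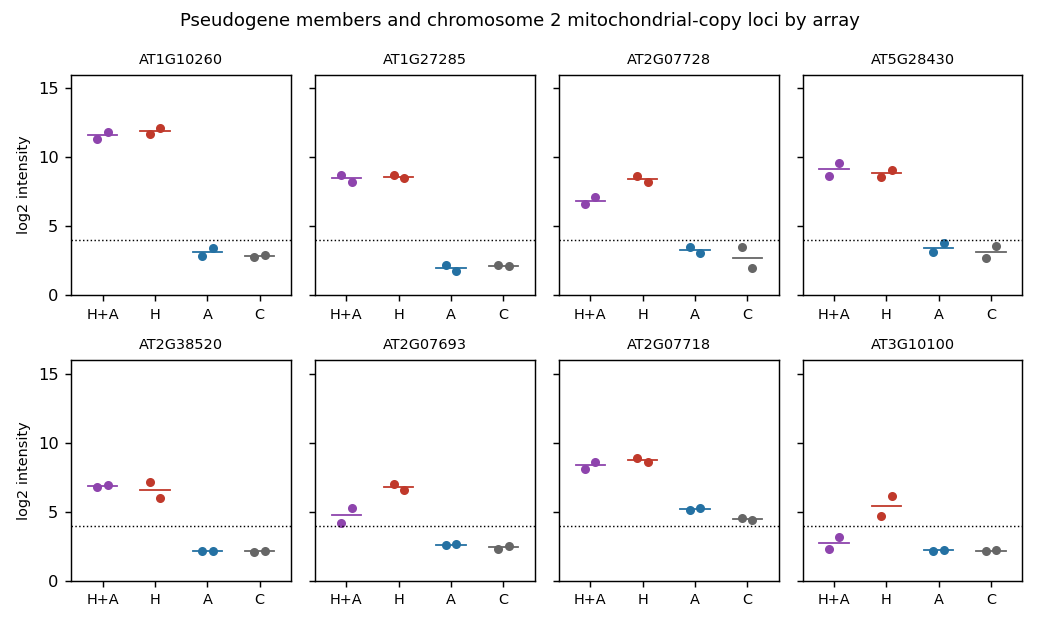
Log2 intensity on each array of the 6 probe sets of pseudogenes and of the loci in the mitochondrial copy on chromosome 2 (AT2G07693 is both), with heat then anoxia (H+A), heat (H), anoxia (A) and control (C) and a short line at each group's mean. The dotted line is log2 4. The H+A points of AT3G10100 lie near its A and C points, those of AT2G07693 lie between its H and its A points, and those of AT1G10260 stay beside its H points.

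A second set gives the comparison: the probe sets raised by heat to the same limit whose anoxia mean was above the window, 117 in number as well. Their medians of heat minus control and of anoxia minus control were 5.65 and 2.23, and 33.3% had a control mean below log2 4. In heat then anoxia against heat, the genes near control in anoxia had 2.56% called higher and 8.55% called lower. Those raised in anoxia too had 4.27% and 3.42%, and the medians were -0.07 and 0.07. The 8.55% includes AT3G10100 and AT4G19430, which passed the filter through the heat arrays of the choice, so their calls support nothing. Pseudogenes were 5.22% of the genes near control in anoxia that have a RefSeq entry and 0 of 117 of those raised in anoxia too. The median log2 level was 8.85 in heat and 4.84 in anoxia for the genes near control in anoxia. For those raised in anoxia too it was 11.51 and 8.39. The differences between the shares of the 2 sets were not tested, nor was the part of signal level in them.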

How the data were processed

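The authors deposited linear intensity values for 8 arrays, made with GCRMA per the submitters' processing notes; its version is not given in the sources used here. Their log2 was taken with no further normalization. Means of the 4 groups over 14535 probe sets (log2 of at least 4 in at least 2 arrays, out of 22746 that are not array controls) were estimated in one model with limma 3.58.1 (R 4.3.3), with 4 residual degrees of freedom, and p-values were Benjamini-Hochberg adjusted over all of them within each comparison. Calls needed adjusted p below 0.05 and at least 2-fold. Tables were made in Python 3.11.15 with pandas 2.3.3 and figures with matplotlib 3.10.9. The procedure was tested on simulated data for heat then anoxia against heat. In the simulation 50 of 14535 probe sets were changed at each size, far fewer than the 746 called higher and 678 lower in the data. The procedure recovered 6% of changes set at log2 1, the fold threshold itself, and 68%, 88% and 92% of those of log2 2, 3 and 4. It also called 7 unchanged probe sets. The adjusted p depends on how many probe sets change, so these shares are not the power of the calls above. Names came from the platform annotation and RefSeq (assembly TAIR10.1): 13513 probe sets have 1 gene, 503 several and 8730 none. The named genes were the 10 highest in heat, the 8 highest and lowest in heat then anoxia against heat, some of those nearest the limits, members of fixed lists and genes of known role, of which some are given in ranges. Members and lists were chosen with earlier results of these data known, and roles were assigned from general knowledge after values were seen. Promoter motifs were not analysed here, since no sequences were used. Precision is limited by having 2 arrays per group. Alternatives were other filters, normalizations, priors, floors, thresholds, a replicate block and each array left out in turn.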

Additional observations from a re-analysis of the deposited data

Results flagged for a closer look

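For 5 of the 117 probe sets the change with anoxia after heat was called different from the change with anoxia alone. The test was of the difference itself (the interaction in limma, background 3.73% called higher and 2.45% lower). These shares are near the background, and the test holds arrays that the choice of the genes used, so the 5 are given as values and nothing is read from them about the set. AT2G07693, in the mitochondrial copy on chromosome 2, had -2.09 after heat and 0.21 without heat, a difference of -2.29 (limma adjusted p = 0.0483, and 0.0253 to 0.138 without 1 array). AT1G16500 had -1.52 after heat and 0.13 without, a difference of -1.65 (limma adjusted p = 0.0466, and 0.0541 to 0.146). The J-domain gene AT2G33735 had -1.23 after heat and 0.32 without, a difference of -1.55 (limma adjusted p = 0.0460, and 0.0611 to 0.148). The bromodomain gene AT2G42150 had 1.46 after heat and 0.03 without, a difference of 1.43 (limma adjusted p = 0.0468, and 0.0636 to 0.141). AT1G67850 had 1.90 after heat and -0.51 without, a difference of 2.41 (limma adjusted p = 0.0477, and 0.0159 to 0.145). When each array was left out in turn, these calls were lost in 7 or 8 of 8 fits, and all 5 were lost without the 2 arrays of high 25S signal. With 2 arrays per group no group could be checked for a sample far from the others.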

How the results depend on the processing

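The levels after heat then anoxia held: 112 to 116 of the 117 were called higher than control and than anoxia under each alternative run, with 0 lower. Their medians moved with the scale: 4.41 over control and 4.06 over anoxia with median centring, and 3.73 and 3.58 with values below log2 4 set to 4; without 1 array they ran between 3.91 and 4.07 over control and between 3.73 and 3.86 over anoxia. Calls against heat (3 higher, 10 lower) were 0 and 0 at adjusted p below 0.01, 2 and 3 with no filter, 1 and 2 without the arrays of high 25S signal (an alternative chosen after seeing the data), and without 1 array 0 to 3 higher and 0 to 7 lower. Interaction calls (2 higher, 3 lower) were 1 and 0 with no filter, 0 higher with quantile normalization, 1 higher with median centring or the floor, 1 and 1 with an intensity trend and robust prior, 0 and 0 at adjusted p below 0.01 or without the arrays of high 25S signal, and without 1 array 0 to 1 higher and 0 to 3 lower (0 and 0 without control replicate 2, heat replicate 2 or anoxia replicate 1). The causes were not tested. Over the single genes and alternatives, 8553 results kept their side of the threshold, 186 lost it, 28 gained it and 0 reversed. These totals pool all comparisons, with the stable calls against control and anoxia and the many results never called. They do not describe the calls against heat and of the interaction, which were lost far more often, as given above. Counts over gene lists were not recomputed.

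The set itself held 55 probe sets with heat at least 4 above control, and 82 to 164 under the other limits, scales and probe filters run, with 110 of 129 shared with the 117 under quantile normalization, 108 of 144 under median centring and 99 of 118 with the floor at log2 4. Without 1 array it held 108 to 128.

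The groups share replicate numbers 1 and 2, but deviations of arrays with the same number correlated at only 0.02 to 0.30, and no label says that a number marks a shared batch, so the numbers were not taken as pairs. The 25S signal was higher in replicate 2 than in replicate 1 of every group (11.46 and 4.47 in heat then anoxia, 6.58 and 5.81 in heat, 12.19 and 4.60 in anoxia, 6.20 and 2.79 in control). With a replicate block the calls against heat were 3 higher and 12 lower, those against control and anoxia 116 each, and the interaction calls 2 higher and 6 lower. The block added calls for AT4G15680 and AT5G18450 against heat and AT4G15680, AT4G19430 and AT3G10100 in the interaction, and changed no other call.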

Other observations

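In the gene order of RefSeq, some of the genes lay next to a chaperone gene of the fixed lists, a pattern looked for after the values were seen and given with no test. Of 110 genes of the set with an adjacent protein-coding gene in the table, 6 had a listed chaperone gene beside them (5.45%), against 51 of 7560 named genes past the filter (0.675%). AT1G16040, the GPI anchor enzyme, lies beside Hsp70b, the choline kinase AT1G74320 beside HSP101, the AAA ATPase AT4G27680 beside HSP21 and the importin AT3G08960 beside ATERDJ3A, and these 4 chaperone genes were not measured under a name here. Hsp70-2 lies beside HSC70-1, another HSP70 gene, which was not measured under a name either. AT1G62730 lies beside Hop2, which stood 3.49 above control in heat. The set also held a pair of adjacent genes, AT2G41160, of a ubiquitin-associated domain protein, and the F-box gene AT2G41170, so that 2 of 110 (1.82%) lay beside another gene of the set, against 68 of 7560 (0.899%). Of 56 genes of the set with a measured neighbour, 4 (7.14%) lay beside a gene at least 3 above control in heat, against 151 of 4040 named genes (3.74%). The pair AT2G41160 and AT2G41170 is among these 4, each counted as the neighbour of the other. Both were chosen for being at least 3 above control in heat, so nothing is read from this share. Whether signal from a neighbouring transcript reaches these probe sets was not tested.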
